A study of Mus musculus with 12 samples.

Results

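Apela, Tac2 and Trh are genes for secreted peptides whose array signal differed strongly between samples of mouse embryonic fibroblasts early in reprogramming. They are described here with Apln, Gnrh1 and the receptor genes Aplnr and Tacr3, 7 genes of the 22180 with a probe set of their own. The peptide genes were chosen by their large differences in intensity among these arrays, and the receptors were added as their partners, so the values of the 5 peptide genes below are a description, with no p-value. The fit across all genes also covers them, and how many of them passed it is given only as a description. Results are tested for the receptor genes, the wider pathway lists and the marker lists. Each of the 7 genes had 1 probe set, and 6 of the 7 reached the low-value filter, which asks for a signal at or above an array's own 30th percentile in at least 3 arrays.

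The cells came from E13.5 embryos and of a strain given as C57Bl/6 with 129X1/SvJ. All of them, controls included, carried the genotype Col1a1::tetOP-OKSM with R26-M2rtTA, in which doxycycline switches on Oct4, Klf4, Sox2 and c-Myc (OKSM). Every sample had received a retroviral hairpin and doxycycline in medium with serum and LIF. The 4 groups of 3 arrays were Renilla control at day 3, Chaf1a knockdown at day 3, Renilla control at day 6 and Chaf1a knockdown at day 6. The target, Chaf1a, is a subunit of the histone chaperone CAF-1, which builds chromatin behind the replication fork. The design sets its knockdown against a hairpin to Renilla luciferase, a gene mouse cells lack. The labels do not say whether replicates were separate embryos or cultures, so p-values measure only the spread between these samples, which may be technical. In a mixed culture, fewer cells of a type and less RNA per cell cannot be told apart.

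As background, Apela and Apln encode the peptide ligands of the receptor Aplnr. Apela is known from embryonic stem cells and the early embryo, where the pathway guides endoderm and heart formation, and apelin acts on vessels. Tac2 encodes neurokinin B, the ligand of the receptor Tacr3, and Gnrh1 encodes gonadotropin-releasing hormone. Both are known from hypothalamic neurons that control reproduction. Trh encodes thyrotropin-releasing hormone, a hypothalamic peptide that drives the pituitary and thyroid. All these peptides are cut from longer precursors, and several are amidated before release.

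The sequence just before the start of each of the 3 genes with the largest differences is shown because motifs of the induced factors were searched there. RefSeq windows were found for 5 of the 7 genes, named Apela, Tac2, Trh, Apln and Tacr3. The windows below hold the 250 bases before the annotated start on the gene's own strand, in build GRCm38.p6. Apela lies at chr8:65037337-65037586 on the minus strand, Tac2 at chr10:127724228-127724477 on the plus strand and Trh at chr6:92244651-92244900 on the minus strand. Capitals mark matches to the motifs searched.
Apela: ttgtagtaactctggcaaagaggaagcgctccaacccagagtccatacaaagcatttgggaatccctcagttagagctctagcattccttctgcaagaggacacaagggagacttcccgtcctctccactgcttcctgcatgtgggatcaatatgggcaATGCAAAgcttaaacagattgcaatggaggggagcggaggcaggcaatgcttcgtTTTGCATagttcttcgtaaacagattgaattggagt
Tac2: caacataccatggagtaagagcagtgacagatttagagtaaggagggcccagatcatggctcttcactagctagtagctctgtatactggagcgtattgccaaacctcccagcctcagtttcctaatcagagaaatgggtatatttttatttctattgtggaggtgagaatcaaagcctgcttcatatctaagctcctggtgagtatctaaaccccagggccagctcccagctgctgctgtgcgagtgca
Trh: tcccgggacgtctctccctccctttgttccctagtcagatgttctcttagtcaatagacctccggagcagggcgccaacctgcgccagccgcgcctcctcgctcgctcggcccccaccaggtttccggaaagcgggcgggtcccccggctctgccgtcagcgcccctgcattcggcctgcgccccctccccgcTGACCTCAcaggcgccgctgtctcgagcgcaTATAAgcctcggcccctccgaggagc

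Both strands were searched for 8 motifs. They were the Oct4 octamer ATGCAAAT, its first 7 bases ATGCAAA, the Sox core ACAATG, the Klf core CACCC, the Myc E-box CACGTG, the cyclic AMP element TGACGTCA, its variant TGACCTCA and the TATA core TATAA. A match to the octamer always also holds the 7-base form. The 7-base form, the variant TGACCTCA and the TATA core were added after the sequences had been seen. The Apela window held ATGCAAA at 2 places, beginning 91 bases before the start on the gene's strand and 36 bases before it on the other strand. That form was present in 4.12% of the 32851 windows of the same length. In the Trh window, TGACCTCA began 57 bases before the start and TATAA 26 bases before it, motifs held by 1.94% and 22.8% of windows. The Tac2 window held none of the 8. All matches in the 3 windows were to the motifs added after the sequences had been seen. The shares of those motifs therefore do not measure how unusual the matches are. The full octamer was in 1.6% of windows, ACAATG in 10.7%, CACCC in 52%, CACGTG in 6.02% and TGACGTCA in 1.55%, and none of these was in any of the 3 windows. GC bases made up 48% of the Apela window, 47.2% of that of Tac2 and 68.8% of that of Trh, against a median of 52.4%. A match is a description of letters and not a binding site, and no binding was measured in these arrays.

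The 12 arrays had median intensities of 39.5 to 43.3, and arrays of the same group correlated at 0.991 to 0.995. Levels below are log2 of the intensity, so a step of 1 is a doubling, and the 30th percentile lay between 4.30 and 4.38. The probe set for Chaf1a itself stood 0.29 lower in knockdown arrays at day 3 (adjusted p = 0.726) and 0.12 lower at day 6 (adjusted p = 0.999, limma), so neither difference passed. Of the 8 fibroblast markers, 7 reached the filter in the 12 arrays, and Lum, a matrix proteoglycan, lay below it in all 12.

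Apela was low at day 3 and high at day 6 with either hairpin. In day 3 controls it stood at 4.98, 5.38 and 5.66 (mean 5.34 ± 0.34, SD, n = 3), and in day 3 knockdown arrays at 5.39, 4.99 and 5.21 (5.20 ± 0.20). At day 6 the controls were at 7.83, 8.51 and 8.48 (8.27 ± 0.38) and the knockdown arrays at 8.62, 8.68 and 8.73 (8.68 ± 0.05). Every day 6 array lay above every day 3 array, and day 6 control replicate 1 was the lowest of its day. The level at day 6 was 7.64-fold that at day 3 in controls and 11.2-fold in knockdown arrays, log2 differences of 2.93 and 3.48. Among the 17860 genes that passed the filter these were the 4th largest absolute difference in controls and the largest in knockdown arrays. Apela was chosen for large differences, so these ranks are only a description.

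Tac2 followed the same course. The day 3 controls were at 5.26, 5.51 and 5.62 (5.46 ± 0.18) and the day 3 knockdown arrays at 5.38, 5.62 and 5.83 (5.61 ± 0.23). At day 6 the controls were at 8.24, 8.68 and 8.55 (8.49 ± 0.22) and the knockdown arrays at 8.63, 9.20 and 8.89 (8.90 ± 0.29). The days did not overlap with either hairpin. The ratio of day 6 to day 3 was 8.17 in controls and 9.80 in knockdown arrays, log2 differences of 3.03 and 3.29. In same-number pairs the difference ran from 2.93 to 3.17 in controls and from 3.06 to 3.58 in knockdown arrays.

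Trh went the other way. Day 3 controls gave 9.32, 9.65 and 9.78 (9.59 ± 0.24), and Trh was at 9.69, 9.08 and 9.67 in day 3 knockdown arrays (9.48 ± 0.35). In day 6 controls it was at 6.80, 6.96 and 7.37 (7.04 ± 0.29), and in day 6 knockdown arrays at 8.02, 8.78 and 8.03 (8.28 ± 0.44). All day 6 arrays were below all day 3 arrays, and the day 6 knockdown arrays lay between the day 6 controls and the day 3 arrays without overlapping either. The day 6 level was 5.83-fold lower than the day 3 level in controls and 2.30-fold lower in knockdown arrays. Knockdown replicate 2 was the lowest knockdown array at day 3 and the highest at day 6, so its own difference was −0.29, against −1.66 and −1.64 in the other two pairs.

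**Figure D1:**
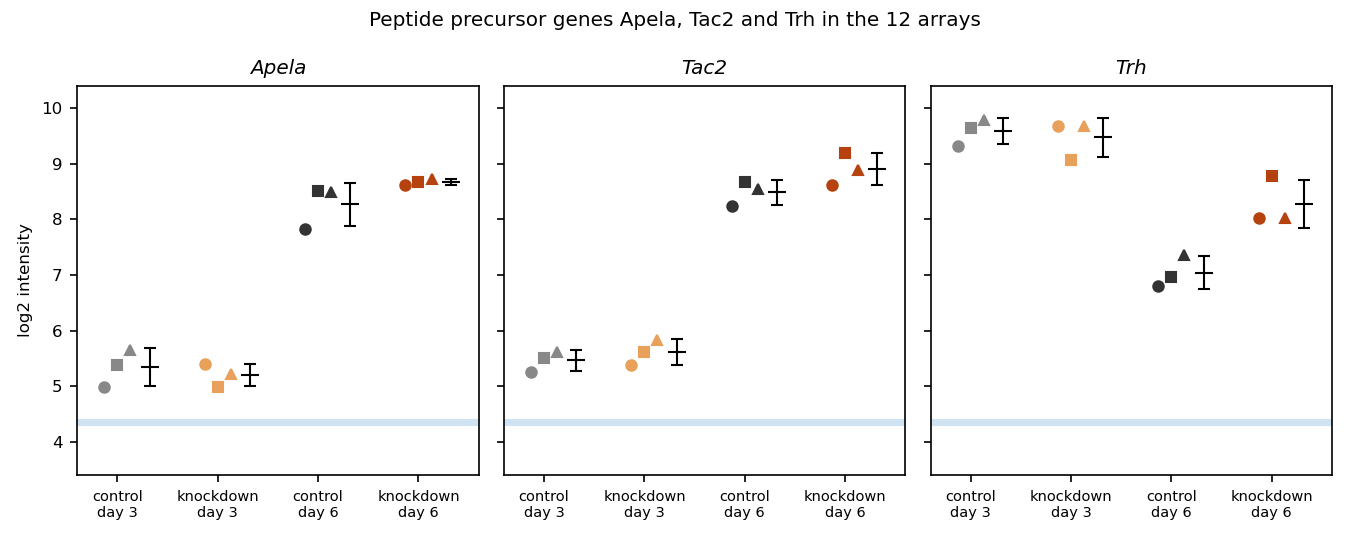
Log2 intensity of Apela, Tac2 and Trh in the 12 arrays, by group (circle, square and triangle are replicates 1, 2 and 3; the black bar is the mean ± SD of 3 arrays; the blue band is the range of the arrays' 30th percentiles, 4.30 to 4.38). Apela and Tac2 lie near 5 at day 3 and between 7.83 and 9.20 at day 6, while Trh lies lower at day 6 than at day 3 and is higher in day 6 knockdown arrays than in day 6 controls.

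Gnrh1 had a much smaller range. It was at 5.13, 4.98 and 5.01 in day 3 controls (5.04 ± 0.08) and at 5.46, 5.38 and 5.45 in day 3 knockdown arrays (5.43 ± 0.05), which did not overlap. At day 6 the controls were at 4.74, 4.67 and 4.79 (4.73 ± 0.06) and the knockdown arrays at 4.94, 4.88 and 4.73 (4.85 ± 0.11), which did. The day 6 level was 1.24-fold lower than the day 3 level in controls and 1.49-fold lower in knockdown arrays, with no overlap of days for either hairpin. All 12 arrays lay above their 30th percentile.

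Apln, the other ligand of Aplnr, did not share the course of Apela. It was at 6.01, 5.94 and 5.46 in day 3 controls (5.81 ± 0.30) and at 5.69, 5.60 and 5.53 in day 3 knockdown arrays (5.61 ± 0.08). At day 6 it was at 5.63, 5.19 and 5.44 in controls (5.42 ± 0.22) and at 5.66, 5.46 and 5.58 in knockdown arrays (5.57 ± 0.10). The groups overlapped in each of the 4 direct comparisons. The day 6 mean minus the day 3 mean was −0.38 in controls and −0.04 in knockdown arrays, on the log2 scale.

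The receptor of Apela and Apln gave a signal close to the filter in every group. At day 3, Aplnr stood at 4.53, 4.54 and 4.52 with the control hairpin and at 4.44, 4.59 and 4.52 with knockdown. At day 6 it stood at 4.57, 4.64 and 4.44 with the control hairpin and at 4.49, 4.38 and 4.49 with knockdown. The group means ran from 4.45 to 4.55, with SDs of 0.0075 to 0.10 (n = 3). It reached its array's 30th percentile in 11 of 12 arrays, and the groups overlapped in each direct comparison. In limma no difference passed. Day 6 against day 3 gave a log2 fold change of 0.02 in controls (95% interval −0.12 to 0.16, adjusted p = 0.883) and −0.06 in knockdown arrays (−0.21 to 0.08, adjusted p = 0.580). The sign in controls turned when replicate 2 of the day 6 controls was left out (−0.023) and with renewed quantile normalisation (−0.0090). Knockdown against control gave −0.02 at day 3 (−0.16 to 0.13, adjusted p = 0.991), which became 0.024 without knockdown replicate 1. At day 6 it gave −0.10 (−0.24 to 0.05, adjusted p = 0.999), and the difference between the days was −0.08 (adjusted p = 0.991).

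Tacr3, the receptor of neurokinin B, lay below the filter in all 12 arrays, from 3.80 to 4.11. It was therefore not part of the main test. At day 3 it gave 4.03, 4.05 and 3.80 with the control hairpin and 4.06, 3.84 and 3.95 with knockdown. At day 6 it gave 3.98, 4.07 and 3.95 with the control hairpin and 3.80, 4.11 and 3.97 with knockdown. With no filter its log2 fold changes ran from −0.04 to 0.04 (limma, adjusted p from 0.869 to 0.999). The receptors of the other peptides, were taken up because they pair with a member. Trhr, the main TRH receptor, lay between 3.48 and 3.73 and Gnrhr between 3.87 and 4.08, below the filter in all 12 arrays. Trhr2, a further TRH receptor, lay between 4.97 and 5.49. Tacr1 and Tacr2, the other tachykinin receptors, lay between 5.55 and 5.93 and between 4.90 and 5.29. None of the 3 passed in any comparison, with adjusted p-values from 0.401 to 0.999. A probe set below the filter has only a bound, and receptor protein was not measured.

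**Figure D2:**
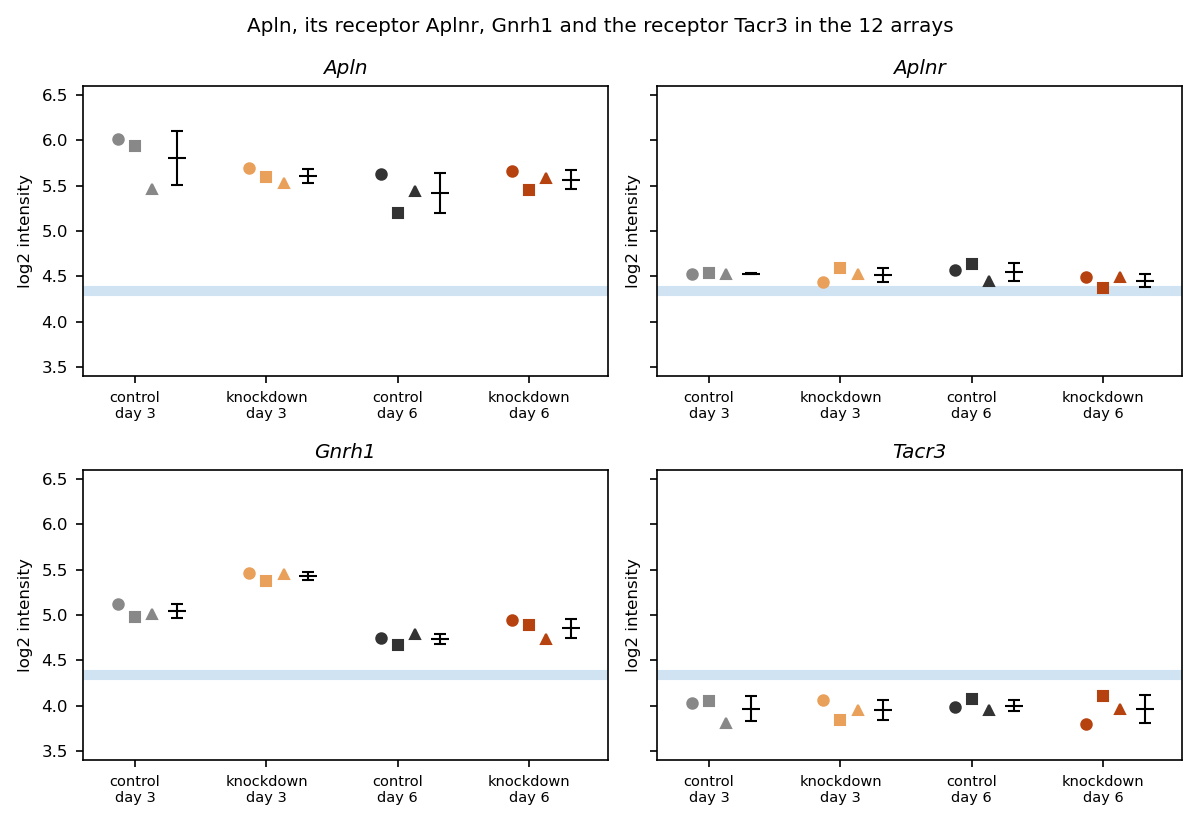
Log2 intensity of Apln, Aplnr, Gnrh1 and Tacr3 in the 12 arrays, by group (circle, square and triangle are replicates 1, 2 and 3; the black bar is the mean ± SD of 3 arrays; the blue band is the range of the arrays' 30th percentiles). The receptor Tacr3 lies below the band in every array, Aplnr lies just above it, and Gnrh1 is highest in day 3 knockdown arrays at 5.38 to 5.46.

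The differences of Apela and Tac2 were larger between days than between hairpins. For Trh this held in controls, but in knockdown arrays its day difference was −1.20, against a hairpin difference of 1.24 at day 6. These genes were chosen for large differences, with no comparison named. Of the 6 members kept by the filter, 2 were past the 0.05 threshold of limma and higher (Apela and Tac2) at day 6 than at day 3 in controls, where 6.99% of all genes were, and 2 were lower (Trh and Gnrh1), where 10.6% were. In knockdown arrays the same 2 were higher (7.46% of all genes) and the same 2 lower (10.5%). In either direction 17.6% of genes were called in controls and 17.9% in knockdown arrays. The choice of the genes fixes these counts, and nothing is read from them. Groups did not overlap for 4 of the 6 in each time comparison, against 35.3% of all genes in controls and 34.3% in knockdown arrays. The controls at day 6 share their arrays with the knockdown comparison at that day, so the comparisons are not independent of one another.

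**Figure D3:**
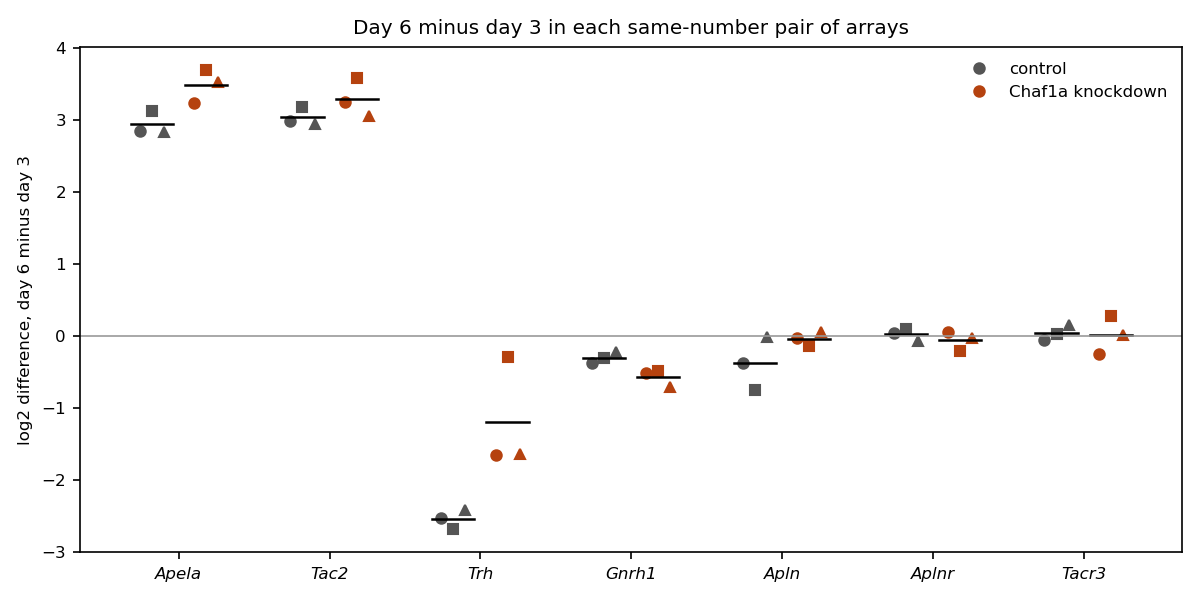
Log2 difference between day 6 and day 3 in each same-number pair of arrays, for control and Chaf1a knockdown (circle, square and triangle are replicates 1, 2 and 3; the black line is the difference of the group means). Apela and Tac2 lie between 2.83 and 3.69, Trh lies between −2.69 and −2.42 in controls and between −1.66 and −0.29 in knockdown arrays, and Aplnr and Tacr3 scatter around 0.

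Between hairpins, Trh at day 6 differed most. Its knockdown level was 2.36-fold the control level, a log2 difference of 1.24, with pair differences of 1.23, 1.82 and 0.67. This was the 4th largest absolute difference of the 17860 genes at that day, but limma did not call it. Trh was chosen for large differences, so its rank is only a description. Without knockdown replicate 2 the difference was 0.99. At day 3 the pair differences were 0.36, −0.58 and −0.11, of mixed sign, with a mean of −0.11, which ran from −0.24 (without control replicate 1) to 0.09 (without knockdown replicate 2). The knockdown difference was larger at day 6 than at day 3 by 1.35, and it was larger in 3 of 3 same-number sets.

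Apela and Tac2 also stood higher in knockdown arrays at day 6, by less. Apela was 1.32-fold the control level, with pair differences of 0.79, 0.17 and 0.24, and its groups did not overlap. That log2 difference of 0.40 became 0.18 without day 6 control replicate 1, the array with the lowest Apela of its day. Tac2 was 1.33-fold the control level, with pair differences of 0.38, 0.52 and 0.34, but its groups overlapped. Its log2 difference of 0.41 became 0.27 without knockdown replicate 2. At day 3 Apela differed by −0.14, but by −0.32 once control replicate 1 was left out and by 0.015 once control replicate 3 was, so its sign rested on 1 array. Tac2 differed by 0.15 at day 3, and by 0.04 without knockdown replicate 3 or 0.27 without knockdown replicate 1. Tac2 was higher in the knockdown array in 3 of 3 pairs on both days.

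Gnrh1 was the member with the clearest gap at day 3. It was 1.31-fold the control level in knockdown arrays, with pair differences of 0.34, 0.39 and 0.44. At day 6 the ratio was 1.09, and the pairs no longer had the same sign. Apln was 1.15-fold lower in knockdown arrays at day 3 and 1.10-fold higher at day 6, with overlapping groups. Its log2 difference ran from −0.37 to −0.09 at day 3 (without control replicate 3 and 1) and from 0.03 to 0.25 at day 6 (without control replicate 2 and 1). In limma 0 of the 6 members kept were called between hairpins at day 3, where 0% of genes were, and 0 at day 6, where 0.0392% were. For the difference between the days, 0% of genes were called. Without adjustment, 1074 genes passed 0.05 at day 3, 793 at day 6 and 910 for the difference. Groups did not overlap for 1 of the 6 at day 3 (10.8% of all genes) and 2 of the 6 at day 6 (10.6%).

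**Figure D4:**
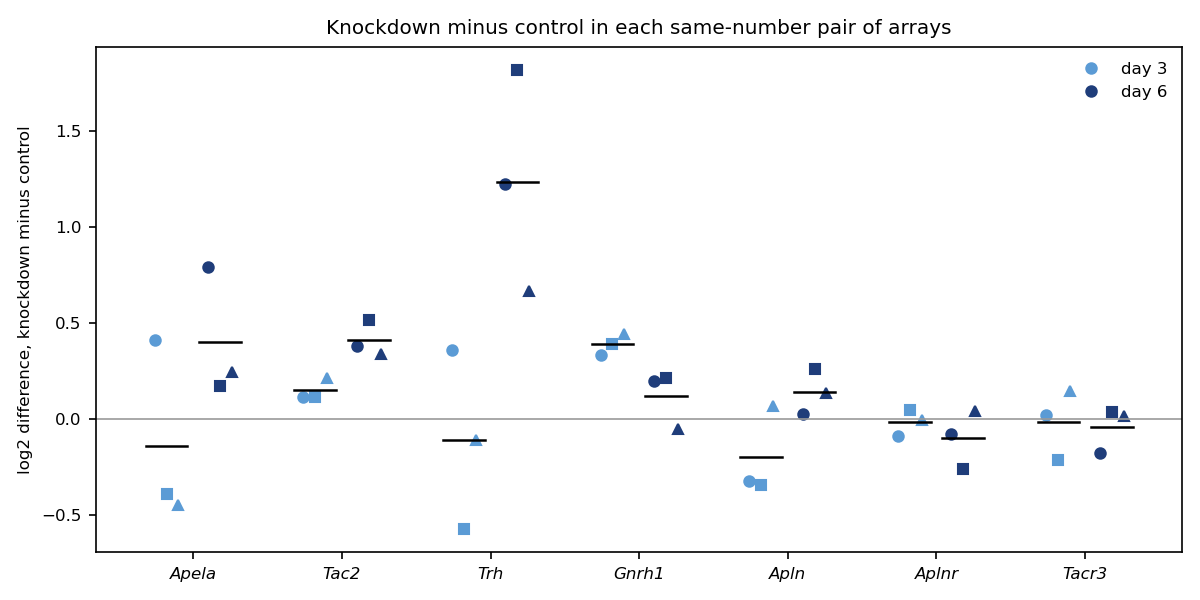
Log2 difference between Chaf1a knockdown and control in each same-number pair of arrays, at day 3 and day 6 (circle, square and triangle are replicates 1, 2 and 3; the black line is the difference of the group means). Trh at day 6 lies between 0.67 and 1.82, Gnrh1 at day 3 between 0.34 and 0.44, and the receptors Aplnr and Tacr3 on both sides of 0.

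Markers of other cell types moved beside these values. Over all genes, 6.99% were called higher and 10.6% lower by day 6 in controls, and 7.46% and 10.5% in knockdown arrays. Of 10 pluripotency markers, 3 were higher in knockdown than in control arrays at day 6 (Nanog, Sall4 and Tdgf1) and 0 lower, where 0.0392% of all genes were called. From day 3 to day 6, 2 rose in controls (Dppa4 and Fgf4) and 5 in knockdown arrays. Their summed intensity was 886 to 994 there, 730 to 753 in day 6 controls, and 631 to 682 in the day 3 arrays of both hairpins. Tdgf1 lay below the filter in 9 of 12 arrays and was tested only through the 3 knockdown arrays of day 6, the arrays in which it is high. Zfp42 lay below it in 8. Of 7 epithelial markers, 2 were higher in knockdown than in control arrays at day 6 (Cdh1 and Spint1, adjusted p = 0.013 and 0.0435, limma). Over all genes, 7 were called between hairpins at day 6. That total fell to 2 with only the groups compared and to 2 without control replicate 2. Not all of the pluripotency and epithelial calls between hairpins can therefore have held there. From day 3 to day 6, 2 of the 7 epithelial markers rose in controls and 7 of the 7 in knockdown arrays. Of these, Esrp1 lay below the filter in 9 of 12 arrays. It was tested only through the 3 knockdown arrays of day 6, the arrays in which it is high. The summed intensity of the epithelial markers was 961 to 1119 in knockdown arrays of day 6, against 586 to 670 in day 6 controls and 393 to 459 at day 3. Of 10 neuronal and neuroendocrine markers, 2 fell from day 3 to day 6 with each hairpin (Tubb3 and Stmn2), and the sum of the list went from 2531 to 2939 at day 3 to 1814 to 2277 at day 6. A sum adds intensities, so the brightest gene of a list weighs most in it. In day 3 controls these were Stmn2 here (10.96), Fgf4 among pluripotency markers (8.30) and Tek among endothelial markers (10.05). None of the 7 measured hypothalamic markers passed in any comparison, and their sums lay between 332 and 395. The part of any of these cells in the peptide signals was not tested.

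The remaining marker lists were as follows. The shares of all genes called by day 6 were again 6.99% higher and 10.6% lower in controls, and 7.46% and 10.5% in knockdown arrays. Endothelial cells are a known site of Aplnr and Apln; 2 of their 6 tested markers rose by day 6 with each hairpin (Kdr and Cdh5), Emcn lay below the filter in all 12 arrays, and the sums lay between 1128 and 1353. Of 6 endoderm markers, 1 rose in controls (Cxcr4), and in knockdown arrays 2 rose (Cxcr4 and Foxa2) and 1 fell (Gata6), with sums of 544 to 662. Of 4 tested placental and yolk sac markers, 1 rose in knockdown arrays (Afp), Tpbpa lay below the filter in all 12 arrays, and the sums were 195 to 219. Of 7 tested fibroblast markers 0 passed in any comparison, and the sums were 5678 to 7811. Their part in the peptide signals was not tested either.

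Few other secreted peptide genes passed the test. Of 54 such genes tested, out of 73 listed, 2 rose and 1 fell by day 6 in controls, and 2 rose and 2 fell in knockdown arrays. These are 5.56% and 7.41% of the list, against 17.6% and 17.9% of all genes. The list's median log2 fold change was 0.07 and 0.06, against 0.01 for all genes. Penk, the enkephalin precursor, rose 3.88-fold in controls, from 5.23 ± 0.07 to 7.18 ± 0.39 (adjusted p = 1.80e-04), and 3.36-fold in knockdown arrays (adjusted p = 3.33e-04). Nppb, the precursor of brain natriuretic peptide, fell 1.89-fold in controls, from 8.75 ± 0.23 to 7.82 ± 0.27, and 1.56-fold in knockdown arrays (adjusted p = 9.43e-04 and 0.00733). Pnoc, the nociceptin precursor, rose by 0.35 in knockdown arrays (adjusted p = 0.00292) and stood at 0.08 in controls (adjusted p = 0.493). The count in controls was 2 without day 3 control replicate 2, 5 without day 3 control replicate 1, 5 with a filter at the array median and 6 with array weights.

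Most receptors of small peptides did not pass the test. Of 68 tested, out of 78 listed, 5 rose and 2 fell in controls (10.3%), and 2 rose and 1 fell in knockdown arrays (4.41%), against 17.6% and 17.9% of all genes, with medians of 0.07 and 0.05. Ramp3, a co-receptor that shapes the calcitonin-family receptors, rose by 0.58 in controls and 0.53 in knockdown arrays (adjusted p = 0.00129 and 0.00199). Prokr1, a prokineticin receptor, fell by 0.56 in controls (adjusted p = 0.00305) and stood at −0.25 in knockdown arrays (adjusted p = 0.115). The count in controls was 2 without day 6 control replicate 1 or 2, 4 without replicate 3 and 2 with only those groups. In knockdown arrays it was 1 without day 3 replicate 1 or day 6 replicate 2, and 5 with the replicate block.

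Among genes that process and store peptides, calls ran in both directions. Of 23 tested, out of 26 listed, 4 rose and 5 fell in controls (39.1%), and 3 rose and 4 fell in knockdown arrays (30.4%), against 17.6% and 17.9% of all genes, with medians of 0.01 and −0.02. Ptprn, a membrane protein of secretory granules, fell 2.17-fold in controls, from 8.01 ± 0.15 to 6.89 ± 0.24, and 2.00-fold in knockdown arrays (adjusted p = 2.12e-04 and 4.00e-04). Qpctl, which forms the pyroglutamate end that TRH carries, fell by 0.45 and 0.58 (adjusted p = 0.00569 and 0.0011). Pam, the enzyme that amidates peptides such as TRH and neurokinin B, rose by 0.34 in controls and 0.35 in knockdown arrays (adjusted p = 0.0188 and 0.0149). Its call was lost without replicate 2 (adjusted p = 0.0647) or 3 (0.0557) of the day 3 controls or replicate 1 of the day 6 controls (0.0851), and without replicate 3 of the day 3 knockdown arrays (0.0600) or replicate 1 of the day 6 ones (0.0569). The list's count in controls was 4 without day 3 replicate 2 or day 6 replicate 1. In knockdown arrays it was 4 without replicate 2 of either day and 3 without day 3 replicate 3 or day 6 replicate 1, and 4 with only those groups.

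Enzymes that break peptides down were called in 43.8% of cases with each hairpin, 2 higher and 5 lower of 16 tested out of 19 listed, against 17.6% of all genes in controls and 17.9% in knockdown arrays. Their medians were −0.01 in controls and −0.08 in knockdown arrays. Ecel1, a neprilysin-family protease, rose 3.08-fold in controls, from 5.73 ± 0.11 to 7.35 ± 0.19, and 3.36-fold in knockdown arrays (adjusted p = 2.27e-06 and 9.57e-07). Prep, a prolyl endopeptidase that can cut TRH, fell by 0.44 and 0.40 (adjusted p = 9.32e-04 and 0.00146). Anpep, an aminopeptidase, fell by 0.46 and 0.49 (adjusted p = 0.00328 and 0.00198). Prcp, a lysosomal carboxypeptidase that can cut apelin, fell by 0.40 and 0.42 (adjusted p = 0.00367 and 0.00222). Ace, angiotensin-converting enzyme, rose by 0.39 in controls and 0.57 in knockdown arrays (adjusted p = 0.0217 and 0.00269). Its call in controls was lost without replicate 2 (adjusted p = 0.0877) or 3 (0.0583) of the day 3 controls and without replicate 3 of the day 6 controls (0.0874).

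Most signal transducers behind these receptors did not pass. Of 20 tested, out of 23 listed, 3 rose and 3 fell in controls (30%), and 5 rose and 3 fell in knockdown arrays (40%), against 17.6% and 17.9% of all genes, with medians of 0.02 for both. Rgs5, which shortens G protein signalling, fell 2.37-fold in controls, from 6.94 ± 0.14 to 5.69 ± 0.19, and 2.47-fold in knockdown arrays (adjusted p = 5.57e-04 and 3.66e-04). Rgs2, of the same family, rose by 0.61 and 0.58 (adjusted p = 0.00473 and 0.00618). Gnai1, an inhibitory G protein subunit, fell by 0.50 with each hairpin (adjusted p = 0.00576 and 0.0053). Plcb1, a phospholipase activated by Gq, rose by 0.41 and 0.54 (adjusted p = 0.00786 and 0.00141). Rgs4 fell by 0.81 in knockdown arrays (adjusted p = 0.00472) and stood at −0.35 in controls (adjusted p = 0.168). The count in controls was 10 with array weights, and in knockdown arrays 5 without day 6 replicate 2. Calls over all genes moved in the alternative fits too. They ran from 2006 to 3967 in controls, against 3140 in the main test. In knockdown arrays they ran from 2159 to 3529, against 3200. A moved count in any of the 5 lists is therefore not read as a change of that list. In the knockdown comparisons 0 genes of the 5 lists were called at day 3 or day 6 in limma, where 0% and 0.0392% of all genes were.

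**Figure D5:**
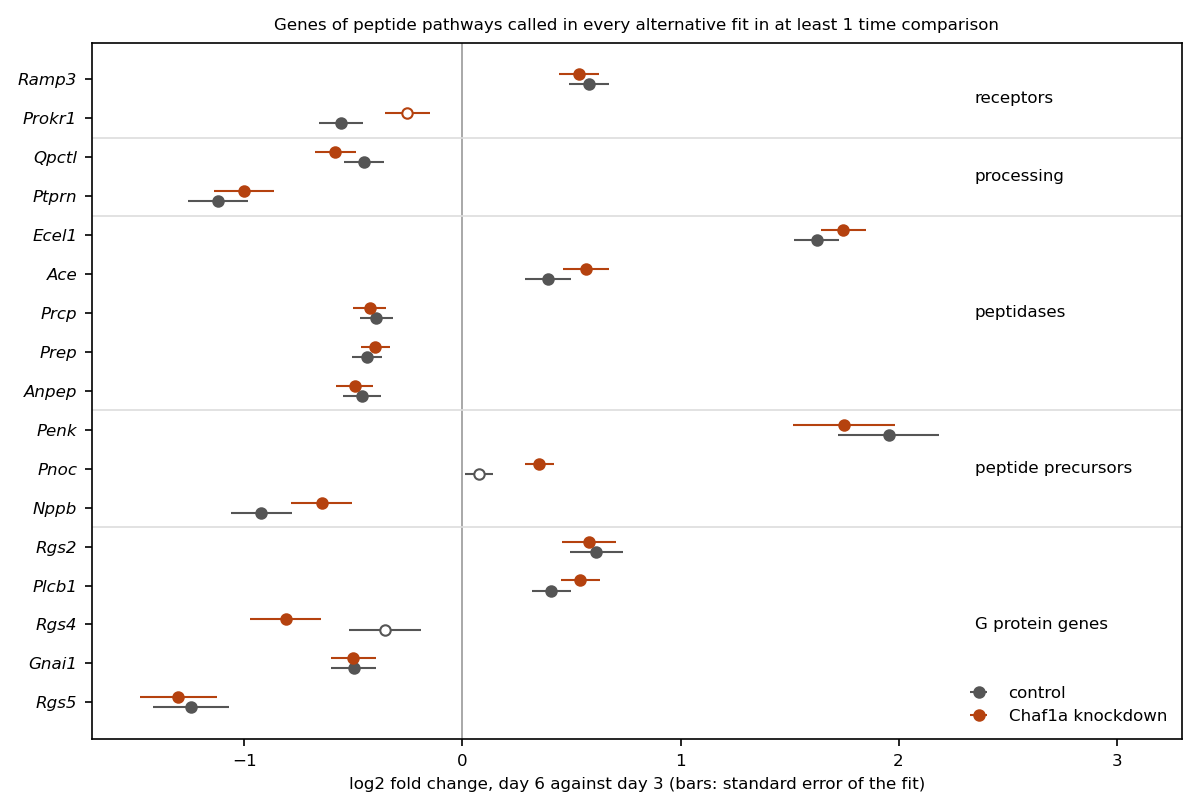
Log2 fold change from day 3 to day 6 of the 17 list genes whose call held in every alternative that tested the gene, in at least 1 time comparison. Bars are the standard error of the limma fit (filled points passed the 0.05 threshold in the main test, open points did not). Penk and Ecel1 lie highest, at 1.62 to 1.95, and Rgs5 and Ptprn lowest.

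The genes most like Apela over the 12 arrays, among 15660 compared, were Pcgf5, a Polycomb ring finger gene, Bex4, Zfp217, Tac2 and Shisa3, with Pearson's r of 0.989 to 0.992. Those most like Tac2 were Jam2, Apela, Zfp217, Grik5 and Arhgef3 (0.984 and above). Apela and Tac2 were on each other's lists, and their correlation was 0.506 after each group's mean was removed. That value was not particular to this pair. Trh, which ran the other way over time, gave 0.599 with Apela and 0.580 with Tac2 in the same way. Apln gave −0.705 and −0.758. The genes nearest to Trh were Dnaaf5, Wdr74, Usp36, Slc25a40 and Nup214 (0.955 to 0.966). These are a description over arrays that fall into 2 days. The likeness is of shape and not of size, since the day 6 mean minus the day 3 mean in controls was 0.80 for Pcgf5 and −0.33 for Wdr74, against 2.93 for Apela and −2.54 for Trh.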

How the data were processed

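RNA from 12 samples was labelled from 100 ng with the WT PLUS kit and hybridised to Affymetrix arrays, per the labels' protocols. The authors deposited intensity values on a linear scale, and the submitters' processing notes name RMA and Affymetrix Expression Console 1.3.0.187. The genome build behind the probe sets was not given in the sources used here. Gene names came from the platform annotation, and 23521 of 41345 probe sets named 1 gene.

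The log2 of each intensity was taken. Where a gene had several probe sets, the one with the highest mean stood for it, and 17860 of 22180 genes passed the filter. Differences were tested in limma 3.58.1 under R 4.3.3, fitting the 4 group means jointly (residual df 8, prior df 4.37); tests were two-sided and adjusted by Benjamini-Hochberg over all genes kept. On simulated data with 17860 genes for knockdown against control at day 6, 74% of genes changed by a log2 of 0.5 and 98% of those changed by 1 were called. That setting held 200 changed genes and independent normal noise. In the real comparison 7 genes were called and same-number arrays deviated together, so these shares do not measure its power. Tables and plots used Python 3.11.15, pandas 2.3.3 and matplotlib 3.10.9. The number of arrays limits the precision.

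The members and lists were chosen with earlier results of these data known. The genes named are the members and, per list and comparison, up to 4 called genes of largest difference. Values are given for those whose call held in every alternative that tested the gene, and for Pam and, in controls, Ace. The others are only counted. Same-number arrays deviated together in 12 of 12 pairs of directly compared groups (r = 0.137 to 0.373), so the numbers were taken to pair the arrays, from the data and not from the labels. The main test did not use this pairing, which entered only the same-number differences and the replicate block.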

Additional observations from a re-analysis of the deposited data

Results flagged for a closer look

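Pnoc, the nociceptin precursor, was lower in knockdown than in control arrays in all 3 same-number pairs at day 3 and higher in all 3 at day 6, with mean log2 differences of −0.17 and 0.10. In limma the difference between the days, 0.28, did not pass (adjusted p = 0.918). Pnoc was found by screening all members and named list genes for a hairpin or time difference that reverses in every pair. How often such a reversal arises in that many genes was not tested. Its mean level of 4.86 lay below the array medians of 5.30 to 5.44.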

How the results depend on the processing

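Leaving out 1 array turned the sign of the hairpin difference at day 3 for Apela (−0.32 to 0.015) and Trh (−0.24 to 0.09), and that of Apln over time in knockdown arrays (−0.09 to 0.015, the latter without day 6 replicate 2). With the replicate block the calls were 0 at day 3, 6 at day 6 and 0 for the difference between hairpin effects, and 3367 and 3509 for time in controls and knockdown, each within 1.5 times of the unblocked count. Of the list counts, that of receptors in knockdown arrays moved by more, from 3 to 5, and the call of Npr1, a natriuretic peptide receptor, was lost there (adjusted p = 0.0504). Among the members, Apln over time in controls (−0.38) also passed with the block, given only as a description. Genes called at day 6 between hairpins numbered 7, but 2 with only the groups compared, and 2 to 7 with 1 array left out, lowest without control replicate 2. With 1 array left out, calls over time in controls ran from 2006 (without day 6 control replicate 1) to 2809, against 3140. In the other alternatives they ran from 2553 to 3967. The sign of Aplnr turned in controls over time with renewed quantile normalisation (−0.0090) and ran from −0.023 to 0.073 with arrays left out, and between hairpins at day 3 from −0.051 to 0.024. The cause of these moves was not tested. Of 44 calls of named list genes, 30 held in every alternative that tested the gene, 14 were lost in at least 1 and 0 changed sign. The call of Pnoc was tested in 13 alternatives and the other calls in 14. Signals near the filter, those of Aplnr and Tacr3 above all, are limited by background.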
